A study of Mus musculus with 24 samples.

Results

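The family of Toll-like receptors was followed through 9 receptor genes (Tlr1, Tlr2, Tlr3, Tlr4, Tlr6, Tlr7, Tlr8, Tlr9 and Tlr13) and Cd14, the co-receptor that hands lipopolysaccharide and other ligands to several of them. These 10 genes were taken by name and matched to their Ensembl identifiers in the deposited count table, which holds 56884 genes. All 10 passed the expression filter that left 13679 genes for testing, so no gene of the set was lost to it. The other Toll-like receptor genes of the mouse, Tlr5, Tlr11 and Tlr12, are described separately, because they were at or near 0 in most libraries.

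Bone marrow-derived macrophages (BMDM) were grown with M-CSF, the growth factor of the macrophage lineage, from the marrow of wild-type C57BL/6J female mice aged 9 weeks. The study asked how compounds that engage the integrated stress response alter the programme that the type 2 cytokines IL-4 and IL-13 induce. Cells of each of 4 mice, numbered 1, 2, 4 and 5, gave 1 RNA-seq library in each of 6 groups, 24 libraries in total. Naive cells were left unstimulated for 24 h. IL-4/IL-13 cells received IL-4 and IL-13, each at 20 ng/mL, for 24 h. The other 4 groups were treated with a compound for 1 h and then kept in IL-4, IL-13 and the same compound for 24 h. The compounds were tunicamycin at 5 µg/mL, which blocks N-linked glycosylation in the endoplasmic reticulum, Sal003 at 10 µM, which inhibits dephosphorylation of eIF2α, and oligomycin at 1 µM, an inhibitor of ATP synthase in mitochondria. There were 2 groups with oligomycin, and in 1 of them ISRIB, an inhibitor of the integrated stress response, was added at 1 µM, but the labels contradict each other on which. The titles and treatment labels of oligomycin set A name ISRIB and its library names do not, and for oligomycin set B the reverse holds. The neutral names are therefore kept, and no direction below is credited to ISRIB. Every group had the same wild-type genotype, and cells given a compound without cytokines were not analysed here.

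Between 16238727 and 26725278 reads per library were assigned to genes, and the lowest count of any of the 10 genes in any library was 139. The naive library of mouse 2 stood apart, with a chi-square per gene of 27.29 to 35.91 against the other naive libraries, which differed among themselves by 6.05 to 7.98. It was the lowest naive library for Tlr1, Tlr3, Tlr4, Tlr7, Tlr8, Tlr9 and Tlr13 and the highest for Cd14. Without mouse 2 in any group, the comparisons with naive cells whose call changed were Tlr3, then called lower with IL-4/IL-13 (log2 fold change -1.37) and with tunicamycin (-1.34), Tlr8, which passed in oligomycin set A (-0.31, adjusted p = 0.0063), and Tlr13, which passed in set B (-0.17, adjusted p = 0.036). All 7 macrophage markers examined, among them Csf1r, Adgre1 and Cd68, were detected in every group, with summed levels of 8720 to 36300 CPM (counts relative to library size, scaled by TMM). Markers of neutrophils and their precursors, 8 genes, summed to 40.6 to 76.8 CPM in naive libraries, 24.1 to 44.4 in IL-4/IL-13, 18.8 to 24.7 in oligomycin set B, 5.09 to 8.49 in Sal003, 2.73 to 4.71 in oligomycin set A and 0.103 to 0.286 in tunicamycin, where Camp, Elane and Ly6g were at 0. The list of 9 dendritic cell markers summed to 144 to 651 CPM, most of it Bst2 and Tcf4, which macrophages also express, and Xcr1 was at 0 in 3 groups and at no more than 0.142 CPM on average in the others. Fibroblast markers, 5 genes, summed to 3.57 to 139 CPM, and lists for B cells, T and NK cells, mast cells and erythroid cells to at most 3.24 CPM in any library. Their part in the results was not tested. In bulk RNA fewer cells of a type and less RNA per cell cannot be told apart.

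Toll-like receptors recognise conserved microbial structures and nucleic acids. Those at the cell surface, with CD14, bind lipids and lipoproteins, TLR4 as the lipopolysaccharide receptor and TLR2 as a heterodimer with TLR1 or TLR6, whereas TLR3, TLR7, TLR8, TLR9 and TLR13 sense RNA or DNA in endosomes. After binding they signal through MyD88 or TRIF to NF-kB and interferon regulatory factors, which switch on inflammatory cytokines and type I interferon. Macrophages express many of them, and IL-4/IL-13-activated macrophages are known for lower inflammatory gene expression.

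The sequences before and around the transcription starts of the 4 endosomal receptor genes with a promoter entry are shown, to place the results on their regulatory DNA. RefSeq promoters (GRCm38.p6, 250 bases before to 50 after the start) matched 7 of the 10 genes with 9 entries; none was matched for Tlr4, Tlr7 and Cd14. The entries below, 5′ to 3′ on the strand of the gene, are chrX:106143025-106143324 (plus) for Tlr13, chrX:167264280-167264579 (minus) for Tlr8, chr9:106222348-106222647 (plus) for Tlr9 and chr8:45410331-45410630 (minus) for Tlr3, and capitals mark motif letters.
Tlr13: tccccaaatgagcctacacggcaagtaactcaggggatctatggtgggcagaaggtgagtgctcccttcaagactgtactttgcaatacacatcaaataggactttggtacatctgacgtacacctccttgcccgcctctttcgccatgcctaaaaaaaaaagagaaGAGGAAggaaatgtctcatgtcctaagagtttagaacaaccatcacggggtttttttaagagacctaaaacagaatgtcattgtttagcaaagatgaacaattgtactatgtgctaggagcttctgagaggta
Tlr8: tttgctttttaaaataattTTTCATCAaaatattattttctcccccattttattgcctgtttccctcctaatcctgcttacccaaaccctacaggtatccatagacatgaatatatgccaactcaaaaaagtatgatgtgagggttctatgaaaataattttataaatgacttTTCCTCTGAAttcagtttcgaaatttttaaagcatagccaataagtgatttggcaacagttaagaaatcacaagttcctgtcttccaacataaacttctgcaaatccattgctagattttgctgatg
Tlr9: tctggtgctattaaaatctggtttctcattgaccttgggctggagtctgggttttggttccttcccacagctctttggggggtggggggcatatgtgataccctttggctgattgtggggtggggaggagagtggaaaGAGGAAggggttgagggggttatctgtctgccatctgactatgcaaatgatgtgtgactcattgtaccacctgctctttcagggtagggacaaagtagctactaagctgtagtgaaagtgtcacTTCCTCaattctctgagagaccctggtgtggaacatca
Tlr3: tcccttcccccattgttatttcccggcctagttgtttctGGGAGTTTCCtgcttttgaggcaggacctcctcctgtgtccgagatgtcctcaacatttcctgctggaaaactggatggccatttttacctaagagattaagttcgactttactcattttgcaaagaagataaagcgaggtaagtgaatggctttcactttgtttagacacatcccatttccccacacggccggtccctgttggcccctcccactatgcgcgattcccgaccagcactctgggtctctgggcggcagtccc

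Of 5 motifs searched on both strands, the PU.1 core GAGGAA stood in the Tlr13 window with its first base at -83 from the start, in the Tlr9 window at -112 and, on the other strand, at 12, and in the Tlr8 window on the other strand at -77. PU.1 is a factor of the macrophage lineage, and its core was in 4 of the 9 entries and in 28.3% of all 32851 promoters of that length. The Tlr8 window also held the spaced palindrome that STAT6 binds (TTC, any 4 bases, GAA), overlapping the PU.1 core at -77 (6.95% of all promoters), and TGATGNAA, the C/EBP-ATF response element (CARE) that ATF4 dimers bind, on the other strand at -231 (3.97%). The Tlr3 window held a kappa-B motif (GGGA, any base, TTTCC) at -211 (0.411%). Matches to the interferon-stimulated response element (GAAA, any 2 bases, GAAA) were in 1 Tlr6 entry and in 3.44% of all promoters. These are matches of letters and not sites of binding.

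Per length, Cd14 was the most abundant of the 10 transcripts in naive cells, at 1570 ± 82.9 (counts per kilobase of exon, scaled to the same total in every library, SD, n = 4), and in tunicamycin-treated cells, at 1160 ± 50.8. In the other 4 groups Tlr8 was highest, with 326 ± 34.1 in IL-4/IL-13, 507 ± 28.8 in Sal003, 305 ± 19.6 in oligomycin set A and 412 ± 39 in set B. Tlr3, the receptor for double-stranded RNA, had the lowest mean in naive (26.8 ± 4.13), IL-4/IL-13 (10.3 ± 0.726) and tunicamycin (11.6 ± 0.84) cells. In Sal003 cells Tlr2 (25.1 ± 1.84) and Tlr3 (28.8 ± 3.40) were lowest and their libraries overlapped, as they did in set B, and in set A Tlr9 was lowest at 12.7 ± 2.08.

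**Figure D1:**
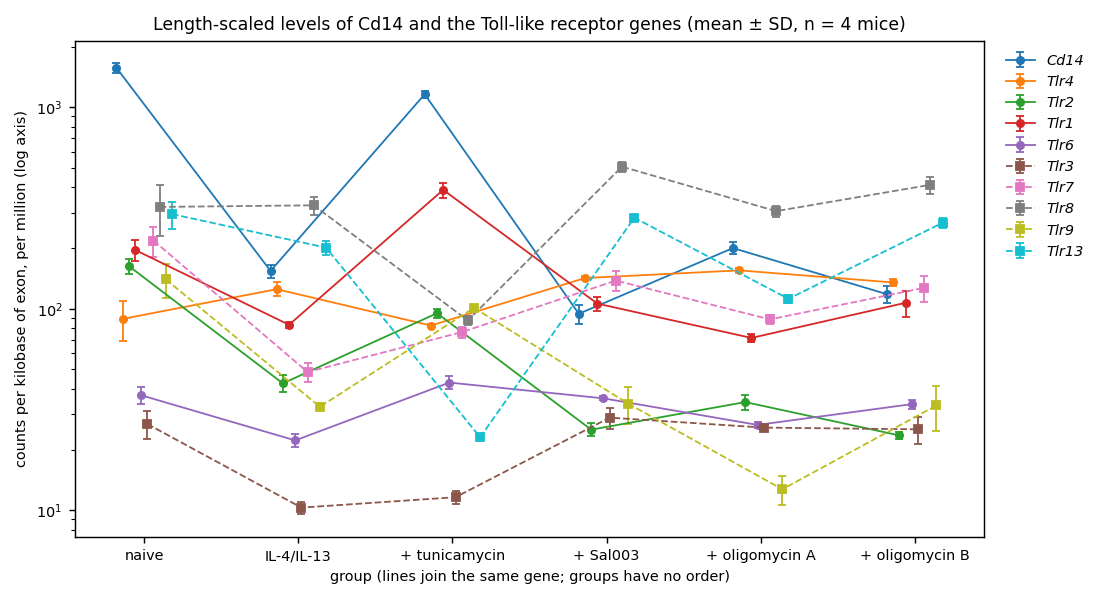
Mean length-scaled level (counts per kilobase of exon, scaled to the same total in every library, log axis) of each gene in the 6 groups, with SD over 4 mice as error bars; circles and solid lines are Cd14 and the cell-surface receptors, squares and dashed lines the endosomal receptors. Cd14 leads in naive (1570) and tunicamycin (1160) cells and Tlr8 in the other groups, and Tlr13 falls from 201 in IL-4/IL-13 to 23 in tunicamycin cells.

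The co-receptor gene Cd14 (ENSMUSG00000051439, GRCm39 chromosome 18, 36858120 to 36859851, minus strand) showed the largest fall of the set with IL-4/IL-13. It was at 511, 648, 569 and 528 CPM in naive libraries of mice 1, 2, 4 and 5 and at 56.0, 56.7, 65.6 and 54.7 CPM with IL-4/IL-13. The groups did not overlap, and Cd14 fell 9.68-fold (log2 fold change -3.27 ± 0.09 SE, adjusted p = 5.7e-20, edgeR quasi-likelihood test adjusted over all genes tested). With tunicamycin it was at 369, 413, 397 and 379 CPM. That was 6.68-fold above IL-4/IL-13 alone (log2 fold change 2.74 ± 0.09, adjusted p = 2.8e-19) and still 1.45-fold below naive cells (log2 fold change -0.53, adjusted p = 2.1e-06). Sal003 libraries were at 34.6, 33.7, 42.9 and 34.1 CPM, each below its IL-4/IL-13 counterpart (log2 fold change -0.68, adjusted p = 6.4e-07). Set B, at 40.2 to 50.0 CPM, was also below IL-4/IL-13 (log2 fold change -0.40, adjusted p = 0.00043). Set A lay at 60.9, 67.6, 73.6 and 68.8 CPM, higher in 4 of 4 mice but overlapping IL-4/IL-13, with a log2 fold change of 0.22 (adjusted p = 0.032) that missed the threshold with DESeq2 (adjusted p = 0.084), with the stricter count filter (0.057) and without mouse 1 (0.064), mouse 2 (0.071) or mouse 5 (0.19).

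Tlr4 (ENSMUSG00000039005, chromosome 4, 66745783 to 66849936, plus strand) encodes the lipopolysaccharide receptor and went the other way. It was at 124, 95.2, 149 and 144 CPM in naive libraries and at 176, 181, 215 and 196 CPM with IL-4/IL-13, without overlap, a rise of 1.5-fold (log2 fold change 0.58 ± 0.09, adjusted p = 2.4e-06). It was the only one of the 10 genes that rose with the cytokines. Tunicamycin libraries were at 112, 110, 113 and 113 CPM, all below IL-4/IL-13 (log2 fold change -0.78, adjusted p = 1.4e-08). Against naive cells tunicamycin gave -0.19 (adjusted p = 0.046), which passed the test although the groups overlapped, and which did not pass with DESeq2 (0.077), without the count filter (0.20), with only those 2 groups in the fit (0.18) or without mouse 1 (0.19), 4 (0.27) or 5 (0.41). Sal003 libraries, at 213 to 227 CPM, were higher than IL-4/IL-13 in 4 of 4 mice but did not pass (log2 fold change 0.20, adjusted p = 0.055). They passed with the mouse as a replicate block (0.022), without the count filter (0.025), with only those 2 groups in the fit (0.019) and without mouse 4 (0.036), and in no other alternative. Sets A and B, at 203 to 224 and 193 to 213 CPM, did not pass either (adjusted p = 0.14 and 0.44, with log2 fold changes ± 2 SE of -0.03 to 0.32 and -0.09 to 0.26). With only set A and IL-4/IL-13 in the fit, set A did pass (0.041). Per length the ratio of Tlr4 to Cd14 was 0.0363 to 0.0673 in naive and 0.0656 to 0.0749 in tunicamycin libraries, against 0.778 to 0.885 in IL-4/IL-13 and 1.31 to 1.62 in Sal003 libraries. An annotated antisense transcript, Gm69151, overlaps 3.4% of the Tlr4 exons, and reads of the 2 genes cannot be told apart there without strand.

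Tlr2 (ENSMUSG00000027995, chromosome 3, 83743576 to 83749074, minus strand), the shared partner of the lipoprotein receptors, was at 174, 180, 206 and 181 CPM in naive libraries and at 44.4, 51.9, 58.2 and 50.7 CPM with IL-4/IL-13. The fall was 3.61-fold (log2 fold change -1.85 ± 0.07, adjusted p = 6.2e-17) with no overlap. Tunicamycin libraries were at 98.0, 99.9, 110 and 96.4 CPM, between naive and IL-4/IL-13 in every mouse (against IL-4/IL-13 log2 fold change 0.98, adjusted p = 6.3e-12). The other 3 compound groups went below IL-4/IL-13, to 28.3 to 34.2 CPM in Sal003 (log2 fold change -0.75, adjusted p = 1.1e-08), 34.8 to 41.3 in set A (-0.47, adjusted p = 5.4e-06) and 26.3 to 29.0 in set B (-0.88, adjusted p = 5.1e-10). Sal003 and set B, the lowest pair of groups for Tlr2, overlapped and did not pass the test between them (adjusted p = 0.26).

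Tlr1 (ENSMUSG00000044827, chromosome 5, 65082022 to 65090941, minus strand) and Tlr6 (ENSMUSG00000051498, chromosome 5, 65108704 to 65203497, minus strand), neighbours that encode the alternative partners of TLR2, did not keep one ratio to Tlr2. Tlr1 was at 144, 124, 138 and 140 CPM in naive libraries and 60.1, 63.3, 59.4 and 63.2 CPM with IL-4/IL-13 (log2 fold change -1.15 ± 0.08, adjusted p = 3.3e-12). With tunicamycin it reached 236, 288, 246 and 249 CPM, above the naive libraries in every mouse. Tlr1 thereby rose 4.14-fold over IL-4/IL-13 (log2 fold change 2.05 ± 0.08, adjusted p = 1.1e-17) and 1.87-fold over naive cells (log2 fold change 0.90, adjusted p = 8e-11), the only one of the 10 genes above its naive level there by this test. Set A had the lowest Tlr1, 46.5 to 49.3 CPM (log2 fold change -0.38 against IL-4/IL-13, adjusted p = 0.00022), while Sal003, at 73.9 to 87.7, and set B, at 67.7 to 88.5 CPM, were above IL-4/IL-13 (adjusted p = 0.00043 and 0.00083). Tlr6 ranged more narrowly, from 35 to 41.3 CPM in naive libraries to 21.1 to 25.3 with IL-4/IL-13 (log2 fold change -0.66, adjusted p = 3.4e-09). Tlr6 rose again with tunicamycin (37.3 to 43.7 CPM, log2 fold change 0.78, adjusted p = 6.6e-11), Sal003 (37.2 to 40.0, 0.71, adjusted p = 1.6e-09) and set B (33.3 to 37.2, 0.57, adjusted p = 5.6e-08), and in set A, at 24.4 to 26.7 CPM, the interval was -0.04 to 0.23 (± 2 SE, adjusted p = 0.23). For Tlr6 the comparisons of tunicamycin, Sal003 and set B with naive cells did not pass (adjusted p = 0.086, 0.48 and 0.25). Tunicamycin passed with the replicate block (0.035), without the count filter (0.015) and without mouse 1 (0.042) or 5 (0.03), and in no other alternative. Set B passed only with upper-quartile scaling (0.038).

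Per length, the ratio of Tlr1 to Tlr2 was 1.09 to 1.35 in naive, 1.66 to 2.2 in IL-4/IL-13 and 1.94 to 2.2 in set A libraries. It was 3.63 to 4.69 with tunicamycin, 3.51 to 4.73 with Sal003 and 3.80 to 5.48 in set B. The ratio of Tlr6 to Tlr2 was 0.222 to 0.234 in naive, 0.483 to 0.552 in IL-4/IL-13 and 0.438 to 0.495 in tunicamycin libraries. In set A that ratio was 0.695 to 0.826, in Sal003 1.32 to 1.49 and in set B 1.34 to 1.6. The ratio of Tlr1 to Tlr6 was 8.22 to 9.61 in tunicamycin libraries and 2.52 to 5.94 elsewhere. Of the windows of 75 bases in their transcripts, 10.2% in Tlr1 and 7.0% in Tlr6 also occur in another gene, each other included, and reads from those stretches could be dropped or split by the counting.

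**Figure D2:**
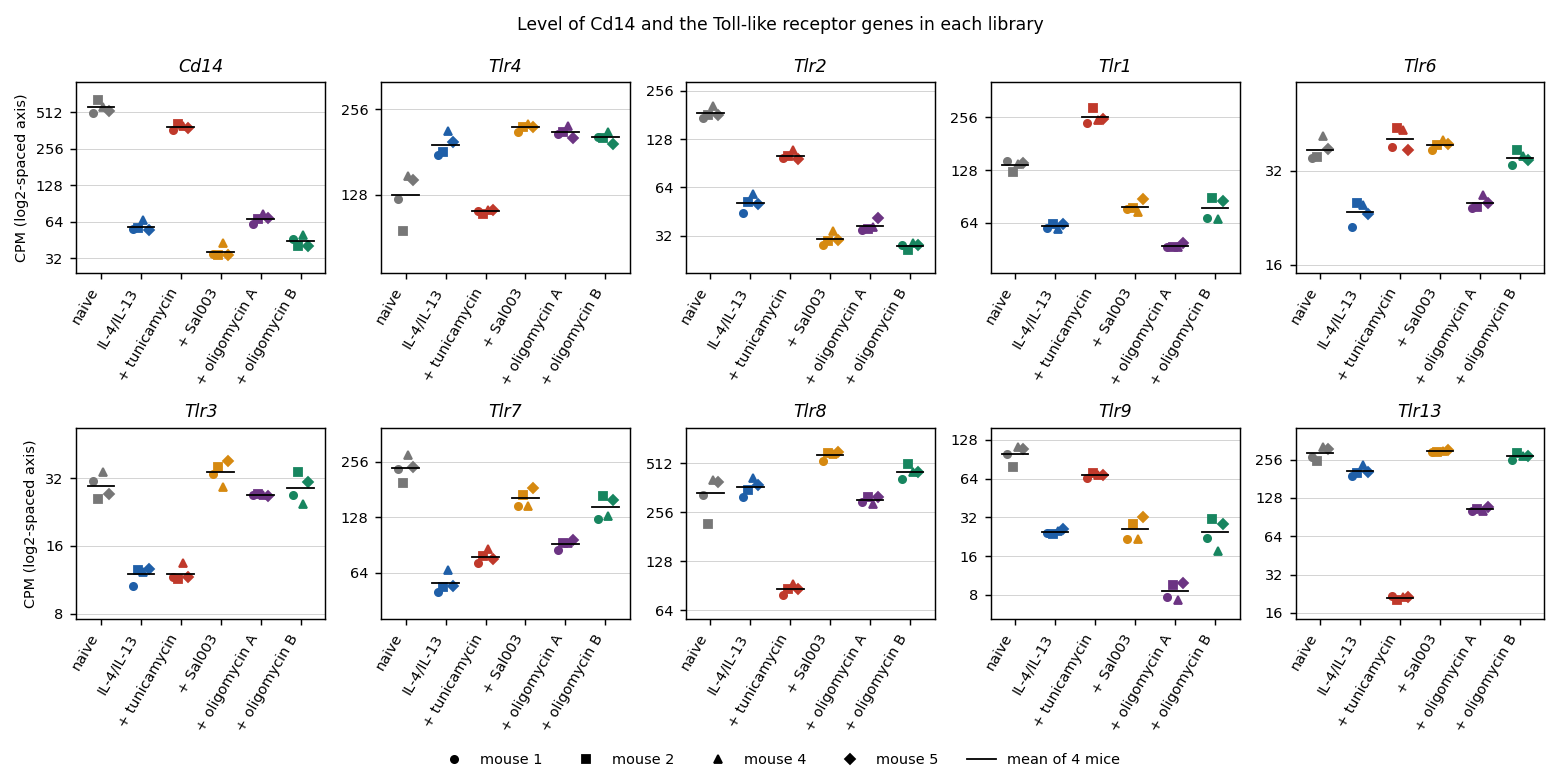
Level of each gene in every library, in CPM on a log2-spaced axis whose range differs between panels; colours are the 6 groups, symbols the 4 mice and the black line the mean. Cd14, Tlr2 and Tlr9 are high in naive cells and partly recovered with tunicamycin, whereas Tlr13 (20.1 to 21.6 CPM) and Tlr8 (79.5 to 93.0 CPM) are lowest there.

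Among the endosomal receptors, Tlr13, which senses bacterial ribosomal RNA, changed most with tunicamycin. Tlr13 (ENSMUSG00000033777, chromosome X, 105186810 to 105204533, plus strand) was at 268, 250, 323 and 311 CPM in naive libraries and 192, 201, 234 and 206 CPM with IL-4/IL-13 (log2 fold change -0.47, adjusted p = 1e-06). In tunicamycin libraries it was at 21.6, 20.1, 21.3 and 21.2 CPM. Tlr13 was thus 9.9-fold below IL-4/IL-13 (log2 fold change -3.31 ± 0.08, adjusted p = 2.9e-22) and 13.7-fold below naive cells (-3.77 ± 0.08, adjusted p = 4.4e-23), with no overlap with any other group. Set A libraries were at 101, 105, 101 and 109 CPM, 2.0-fold below IL-4/IL-13 (log2 fold change -1.0, adjusted p = 1.5e-12). Sal003, at 292 to 305 CPM, and set B, at 255 to 288, were above IL-4/IL-13 (log2 fold changes 0.51 and 0.39, adjusted p = 3.8e-07 and 2e-05). Neither passed against naive cells (log2 fold change ± 2 SE of -0.08 to 0.18 and -0.21 to 0.05). Set B did so only with upper-quartile scaling (-0.14, adjusted p = 0.046) and without mouse 2 (-0.17, adjusted p = 0.036).

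Tlr8 (ENSMUSG00000040522, chromosome X, 166024184 to 166047325, minus strand), a receptor of single-stranded RNA, had the widest spread among naive libraries, 326, 216, 404 and 390 CPM, where mouse 2 was lowest. With IL-4/IL-13 it was at 315, 351, 415 and 375 CPM, higher in 2 mice and lower in 2, and the difference did not pass (log2 fold change ± 2 SE of -0.12 to 0.37, adjusted p = 0.39). Tunicamycin libraries held 79.5, 86.2, 93.0 and 86.5 CPM, 4.22-fold below IL-4/IL-13 (log2 fold change -2.08 ± 0.13, adjusted p = 1.5e-13). Sal003 libraries held 527, 591, 578 and 598 CPM, above every library outside that group (log2 fold change 0.66, adjusted p = 6.9e-05). Set B, at 407 to 504 CPM, passed against IL-4/IL-13 (0.31, adjusted p = 0.031) but not with upper-quartile scaling (0.056) or without mouse 1 (0.13) or 5 (0.086). Set A, at 288 to 319 CPM, was lower than IL-4/IL-13 in 4 of 4 mice and did not pass (-0.26, adjusted p = 0.062). It did pass with the replicate block (0.043), DESeq2 (0.046), upper-quartile scaling (0.045) and the stricter count filter (0.039). It also passed without the count filter (0.012), with only those 2 groups in the fit (0.0029) and without mouse 2 (0.01), but not without mouse 1, 4 or 5.

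Tlr7 (ENSMUSG00000044583, chromosome X, 166086758 to 166113605, minus strand) lies beside Tlr8 and also senses single-stranded RNA. It was at 235, 197, 278 and 241 CPM in naive libraries and 50.5, 54.0, 66.4 and 54.4 CPM with IL-4/IL-13, a fall of 4.22-fold (log2 fold change -2.08 ± 0.11, adjusted p = 1e-14). Its level was higher than with IL-4/IL-13 in all 16 compound libraries. Sal003 libraries were at 147, 170, 148 and 184 CPM (log2 fold change 1.53 ± 0.11, adjusted p = 8.8e-12) and set B libraries at 125, 167, 130 and 158 CPM (1.37 ± 0.10, adjusted p = 5.2e-11). Tunicamycin, at 72.4 to 86.0 CPM, and set A, at 85.6 to 95.9 CPM, showed smaller rises (0.48 and 0.70, adjusted p = 0.00024 and 2.1e-06) and overlapped each other. Every compound group stayed below naive cells, by -0.55 with Sal003 to -1.60 with tunicamycin. Per length the ratio of Tlr8 to Tlr7 was 1.14 to 1.68 in naive libraries, 6.49 to 7.17 with IL-4/IL-13, 1.13 to 1.18 with tunicamycin and 2.97 to 4.05 in the other 3 groups, and did not overlap between IL-4/IL-13 and any other group. In Tlr7, 4.7% of the 75-base windows occur in other genes.

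Tlr9 (ENSMUSG00000045322, chromosome 9, 106099797 to 106104082, plus strand), the receptor for unmethylated CpG DNA, was at 99.3, 78.2, 113 and 109 CPM in naive libraries and 24.2, 23.8, 25.3 and 25.8 CPM with IL-4/IL-13, a fall of 4.03-fold (log2 fold change -2.01 ± 0.14, adjusted p = 4e-12). Tunicamycin libraries, at 65.1, 70.7, 68.4 and 68.6 CPM, were 2.75-fold above IL-4/IL-13 (log2 fold change 1.46 ± 0.14, adjusted p = 7.9e-10) and below naive cells (-0.55, adjusted p = 0.00043). Set A libraries, at 7.72, 9.55, 7.28 and 9.89 CPM, were the lowest of all, 2.88-fold below IL-4/IL-13 (log2 fold change -1.52 ± 0.16, adjusted p = 1.1e-08). In Sal003 and set B libraries mice 2 and 5 were higher (28.5 to 32.2 CPM) than mice 1 and 4 (17.4 to 22.3 CPM), and neither group passed against IL-4/IL-13 (adjusted p = 0.70 and 0.97, log2 fold changes ± 2 SE of -0.22 to 0.37 and -0.29 to 0.30). The ratio of Tlr13 to Tlr9 per length was 0.209 to 0.244 with tunicamycin, 1.98 to 2.34 in naive and 5.82 to 11.4 in the other libraries.

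Tlr3 (ENSMUSG00000031639, chromosome 8, 45848702 to 45864117, minus strand) was at 31.0, 25.9, 34.2 and 27.1 CPM in naive libraries and 10.6, 12.5, 12.3 and 12.6 CPM with IL-4/IL-13 (log2 fold change -1.30 ± 0.10, adjusted p = 4.7e-11), 2.46-fold lower and so just under the 2.5-fold threshold of the study. With tunicamycin it was at 11.6, 11.4, 13.4 and 11.6 CPM, with an interval against IL-4/IL-13 of -0.22 to 0.22 (log2, ± 2 SE, adjusted p = 0.98). In the other 3 compound groups it was higher than with IL-4/IL-13 in every mouse. Sal003 libraries were at 33.3, 36.0, 29.3 and 38.2 CPM (1.51 ± 0.10, adjusted p = 6.1e-12), set A at 26.6 to 27.2 CPM (1.17, adjusted p = 2.9e-10) and set B at 24.5 to 34.0 CPM (1.28, adjusted p = 1.1e-10). These groups overlapped naive cells and did not pass against them (adjusted p = 0.053, 0.21 and 0.85). Sal003 did so without the count filter (0.012) and without mouse 4 (0.0016), and in no other alternative. An antisense transcript, Gm45542, overlaps 8.2% of the Tlr3 exons.

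Of the remaining mouse receptors, Tlr5, the flagellin receptor, was at 1.71 to 2.57 CPM in naive libraries (30 to 50 counts) and at 0 to 2 counts with IL-4/IL-13, lower in 4 of 4 mice (adjusted p = 5.4e-10), and its group means with the compounds did not exceed 0.416 CPM. Tlr11, which binds profilin of protozoa, was at 0.697 to 1.48 CPM in naive and 1.95 to 3.37 CPM in IL-4/IL-13 libraries (log2 fold change 1.38, adjusted p = 8.3e-05), and at 0 to 2 counts with tunicamycin. Tlr12 had at most 7 counts in any library and was not tested.

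With IL-4/IL-13 against naive cells, then, Tlr4 rose, Tlr8 did not pass and the other 8 genes fell, where 30.1% of all genes tested rose and 30.4% fell. Of these, Cd14, Tlr2, Tlr7 and Tlr9 fell by at least 2.5-fold, 4 of 10, against 6.08% of all genes tested that did so (called hereafter, meaning adjusted p under 0.05 and at least 2.5-fold). In 9 of the 10 genes the naive and IL-4/IL-13 libraries did not overlap, as in 49.7% of all genes. The median log2 fold change of the set was -1.23, and that of all genes tested -0.02. Macrophage markers moved as well, Adgre1 from 3490 to 977 CPM on average, Lyz2 from 23600 to 5980 and Fcgr1 from 497 to 36.9, while Cd68 was at 1200 and 1230, and the 7 summed to 30600 to 36300 CPM in naive and 11400 to 13800 in IL-4/IL-13 libraries. Their part in the result was not tested.

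With tunicamycin against IL-4/IL-13, 6 genes rose, 3 fell and Tlr3 did not pass (38.7% of all genes rose and 37.6% fell), and 9 of 10 did not overlap, as in 73.9% of all genes. Called rises were those of Cd14, Tlr1 and Tlr9, 3 of 10 against 8.56% of all genes, and called falls those of Tlr13 and Tlr8, 2 of 10 against 14.0%. Of the 5 cell-surface genes, Tlr4 fell and the others rose, and of the 5 endosomal genes Tlr9 and Tlr7 rose and Tlr13 and Tlr8 fell. Against naive cells the called genes were Tlr13, Tlr8 and Tlr7, all lower (3 of 10 against 15.1% of all genes). Macrophage markers also moved in these libraries, Adgre1 being at 6680 CPM on average against 977 with IL-4/IL-13, Csf1r at 821 against 3730 and Cd68 at 481 against 1230, and the neutrophil markers were near 0. Their part in the result was not tested.

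Sal003 raised 6 of the 10 genes above IL-4/IL-13 and lowered Tlr2 and Cd14, where 25.9% of all genes rose and 24.6% fell. The groups did not overlap in 8 of 10 (50.3% of all genes), and the called rises were Tlr7 and Tlr3 (2 of 10 against 2.68% of all genes called up). Set B raised the same 6 genes and lowered the same 2 by the test, where 27.9% of all genes rose and 26.4% fell. In set B 7 of 10 genes did not overlap IL-4/IL-13 (50.8% of all genes), and Tlr7 was the 1 called rise (2.94% of all genes). That call rested on mice 2 and 5, since without either of them, or with upper-quartile scaling, no gene of the set was called, and without mouse 4 there were 2. Between set B and Sal003 none of the 10 was called and only Cd14 passed (log2 fold change 0.28, adjusted p = 0.032), where 18.5% of all genes passed and 0.497% were called. The log2 differences of the other 9 lay between -0.34 (Tlr8, adjusted p = 0.051) and -0.03 (Tlr1), and the intervals (± 2 SE) reached from -0.58 to 0.22. Sal003 and set B share the IL-4/IL-13 libraries as their control, so their likeness against that control is not independent.

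**Figure D3:**
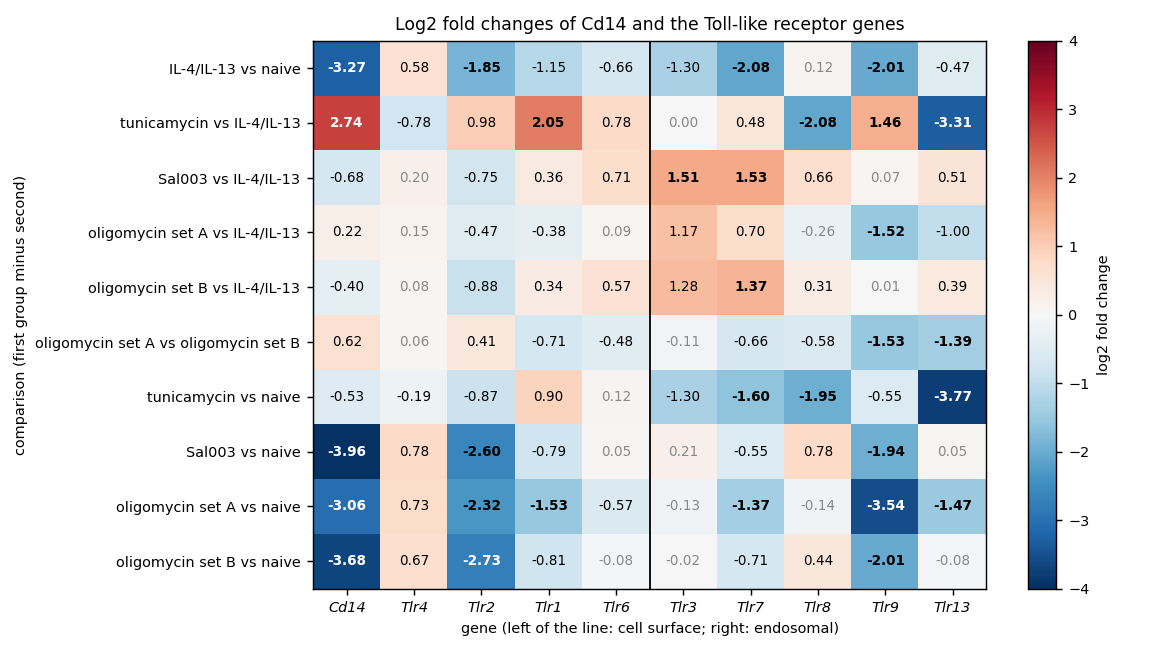
Log2 fold changes (edgeR) of each gene, in columns, for 10 comparisons, in rows, with the first group minus the second; red is higher and blue lower in the first group. Bold values are at adjusted p under 0.05 and at least 2.5-fold, grey values did not pass adjusted p under 0.05, and the row of tunicamycin against IL-4/IL-13 runs from 2.74 (Cd14) to -3.31 (Tlr13).

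Oligomycin set A raised Tlr3, Tlr7 and Cd14 and lowered Tlr1, Tlr2, Tlr9 and Tlr13 against IL-4/IL-13, where 34.0% of all genes rose and 32.2% fell, and 6 of 10 did not overlap (64.8% of all genes). The fall of Tlr9 was the 1 called change (7.96% of all genes were called down). Compared directly with set B, set A was lower in Tlr9 (log2 fold change -1.53 ± 0.16, adjusted p = 3.6e-08) and Tlr13 (-1.39 ± 0.07, adjusted p = 5e-14), both called where 1.48% of all genes were called down. Tlr1 (-0.71), Tlr7 (-0.66), Tlr8 (-0.58) and Tlr6 (-0.48) were also lower and Cd14 (0.62) and Tlr2 (0.41) higher in set A, each in 4 of 4 mice and past the test, so that 2 of 10 were higher and 6 lower, against 19.9% and 21.3% of all genes. In 8 of 10 genes the sets did not overlap (41.6% of all genes). Tlr3 (adjusted p = 0.37, log2 interval -0.30 to 0.08) and Tlr4 (adjusted p = 0.61, -0.11 to 0.23) did not pass. Against naive cells 6 genes were called lower in set A (9.53% of all genes), Tlr9 by 11.6-fold and Cd14 by 8.33-fold leading, whereas Sal003 (7.49% of all genes) and set B (7.37%) had the same 3, Cd14, Tlr2 and Tlr9.

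Across the 24 libraries, as a description over libraries that share mice and groups, the log2 levels of Cd14 and Tlr2 had a Pearson r of 0.96, those of Tlr13 and Tlr8 of 0.94 and those of Tlr3 and Tlr7 of 0.83, while Cd14 and Tlr4 had -0.91. The genes with the pattern most like that of Tlr3 were Ifih1 (r = 0.985), a cytosolic sensor of double-stranded RNA, Rnf213 and Irf7 (0.983). For Tlr13 they were Crybg1 (0.992), Rab7b (0.99), a GTPase of late endosomes and lysosomes, and Tmcc3. For Tlr8 they were Slc29a3 (0.983), a lysosomal nucleoside transporter, Pgap1 and Kitl. Cd14 was most like Rrad, Tnfaip2 and Ralgps1 (0.975 to 0.976), Tlr4 most like Pon3 (0.978), Tlr9 most like Maged2 and Ptpn6 (both 0.975), Tlr7 most like Acp2 (0.97), Tlr2 most like Pilra (0.974), Tlr1 most like Ik (0.975) and Tlr6 most like S1pr2 (0.938).

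The genes around the receptors were taken as 5 lists of 72 genes, of which 70 were tested (Lbp and Ifnb1 were too low). The list of 17 genes that receptor ligands induce in macrophages had the medians farthest from 0 in the first 2 comparisons. Of the 16 tested, 14 fell with IL-4/IL-13, where 30.4% of all genes fell, 11 were called lower, against 6.08% of all genes, and none rose. The median log2 fold change was -1.68, and -0.02 over all genes. With tunicamycin against IL-4/IL-13, 14 of 16 rose (38.7% of all genes), 12 were called higher (8.56% of all genes) and none fell, with a median of 3.00 against 0.01 over all genes. Against naive cells the list was divided with tunicamycin, as 8 genes rose and 6 fell, with a median of 0.61 against -0.05 over all genes. There 7 were called higher and 4 lower, and 15.1% of all genes were called lower. The shares of all genes that rose, fell or were called higher there are not given, so those counts have no background beside them. Ptgs2 was 4.06 above naive cells and Il1b 3.76 below them (log2). Cxcl10, an interferon-inducible chemokine, went from 38.4 to 47.4 CPM in naive cells to 0.501 to 1.4 with IL-4/IL-13 (log2 fold change -5.71, adjusted p = 6e-13), and Il1b (-4.98) and Il10 (-4.06) fell with it. Il6 was at 0 to 0.284 CPM in naive and IL-4/IL-13 libraries, at 94.6, 112, 94.7 and 110 CPM with tunicamycin and at 16.5 to 20.4 CPM in set A, against 0.697 to 0.921 CPM in set B (set A over set B, log2 fold change 4.48, adjusted p = 1.9e-16). The chemokine Cxcl2 (5.11, adjusted p = 1.1e-13) and the acute-phase gene Saa3 (5.60, adjusted p = 1.4e-16) also rose with tunicamycin. Against IL-4/IL-13, 6 of the 16 rose with Sal003 (25.9% of all genes), 8 with oligomycin set A (34.0%) and 8 with set B (27.9%), and Acod1, the itaconate-producing enzyme, was among the largest (3.68, 3.11 and 2.75).

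The interferon regulatory factor gene Irf7, downstream of TLR7 and TLR9, was at 457 to 580 CPM in naive libraries, 28 to 39 with IL-4/IL-13 and 23.7 to 28.1 with tunicamycin, where the difference from IL-4/IL-13 did not pass (adjusted p = 0.41). In Sal003 it was at 720, 850, 416 and 1190 CPM (log2 fold change 4.65 ± 0.30, adjusted p = 3.2e-12), in set B at 483, 885, 318 and 920 CPM (4.37) and in set A at 270 to 365 CPM (3.42). Of the 8 NF-kB and IRF genes it was the 1 called rise in each of these 3 comparisons. Of all genes, 2.68% were called up with Sal003 and 2.94% in set B, and 12.7% were called in either direction in set A. Nfkb1 fell in Sal003 (-0.51), set A (-0.51) and set B (-0.44). Mouse 4 was the lowest and mouse 5 the highest in Sal003 and set B for Irf7 as for Tlr3 in Sal003.

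Of 14 ligand-binding partners and trafficking helpers tested, 5 rose and 8 fell with IL-4/IL-13 (30.1% and 30.4% of all genes). Cd36, a lipid scavenger receptor that assists TLR2, was the 1 called gene (1.77, adjusted p = 2.8e-15), 1 of 14 where 11.5% of all genes were called. With tunicamycin Hsp90b1, the chaperone gp96 that folds most Toll-like receptors, rose from 903 to 1070 CPM to 4730 to 5420 CPM (log2 fold change 2.38 ± 0.07, adjusted p = 2.7e-20). Of the 4 endosomal proteases listed, which cut the nucleic-acid receptors, Ctss (-2.32, adjusted p = 5e-19), Ctsb (-1.94, adjusted p = 1.1e-17) and Ctsl (-1.11, adjusted p = 2e-11) fell, and Lgmn did not pass (-0.05, adjusted p = 0.51). Genes on the other strand overlap 13.8% of the exon bases of Hsp90b1, 15.4% of Ctsb and 26.1% of Ctsl. Unc93b1, which carries those receptors to endosomes, did not pass (0.07, adjusted p = 0.17). Cd180 and the values of Hsp90b1, Unc93b1, Ctsl and Lgmn with tunicamycin were chosen after their values were seen. The same holds for Myd88, Ticam2, Irak3 and Lgals3bp below, for Irf7 and Atf3 with tunicamycin and for Nfkb1 in set A. Cd180, a receptor relative, was above IL-4/IL-13 by 1.46 with Sal003 and by 1.03, short of 2.5-fold, in set B. Ly86, its partner, fell in set A (-1.01, adjusted p = 3e-10). Of the 14 genes, 1 was called higher with Sal003 (2.68% of all genes) and 1 in set A, where 12.7% of all genes were called in either direction. None was called in set B (7.96% of all genes).

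Of the 20 adaptors and kinases, 1 was called with IL-4/IL-13 (11.5% of all genes) and 2 with tunicamycin (22.6%). None was called with Sal003 (7.71% of all genes), in set A (12.7%) or in set B (7.96%). Myd88, the adaptor of most of these receptors, fell from 164 ± 12.5 CPM to 95.8 ± 1.73 with IL-4/IL-13 (-0.78, adjusted p = 7.4e-13) and was at 153 ± 4.18 with tunicamycin, a rise over IL-4/IL-13 (0.68, adjusted p = 4.1e-12). Ticam2, the bridging adaptor of TLR4, rose with tunicamycin (1.67, adjusted p = 1.1e-20) and in set A (0.80, adjusted p = 7.9e-14), but these counts are uncertain, since Tmed7 covers 65.3% of its exon bases in the same orientation. Opposite-strand genes overlap 16.2% of Myd88 and 12.4% of Socs1. Among 12 inhibitors, 3 were called up and 3 down with IL-4/IL-13, where 11.5% of all genes were called in either direction. Socs1 rose (4.13, adjusted p = 8.4e-19) and Atf3 rose (1.53, adjusted p = 6e-19), and Irak3 fell from 77.5 ± 5.85 to 21.4 ± 0.605 CPM (-1.86, adjusted p = 2.7e-17). Against IL-4/IL-13 alone, tunicamycin moved these 3 the opposite way, with Atf3 lower (-1.48, adjusted p = 2.5e-19), Socs1 at 3.86 to 4.76 CPM (-3.93, adjusted p = 3.1e-19) and Irak3 at 229 ± 15.0 CPM (3.42, adjusted p = 5.2e-23). Not all of the 12 reversed, since Lgals3bp averaged 1010 CPM in naive cells, 420 with IL-4/IL-13 and 138 with tunicamycin. Of the 12, 2 were called up and 4 down with tunicamycin against IL-4/IL-13, where 22.6% of all genes were called in either direction. In all lists together, 20 of 70 genes were called with IL-4/IL-13 (4 up and 16 down, with 11.5% of all genes called), 25 with tunicamycin (18 up and 7 down, 22.6%), 10 with Sal003 (7.71%), 9 with oligomycin set A (12.7%) and 7 with set B (7.96%). With at least 10 counts required in every library, 61 of these genes were tested. Of the 61, 13 were called with IL-4/IL-13, 19 with tunicamycin, 6 with Sal003, 4 in oligomycin set A and 3 in the other set. The shares of all genes called under that filter are not given, so these counts have no background beside them.

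**Figure D4:**
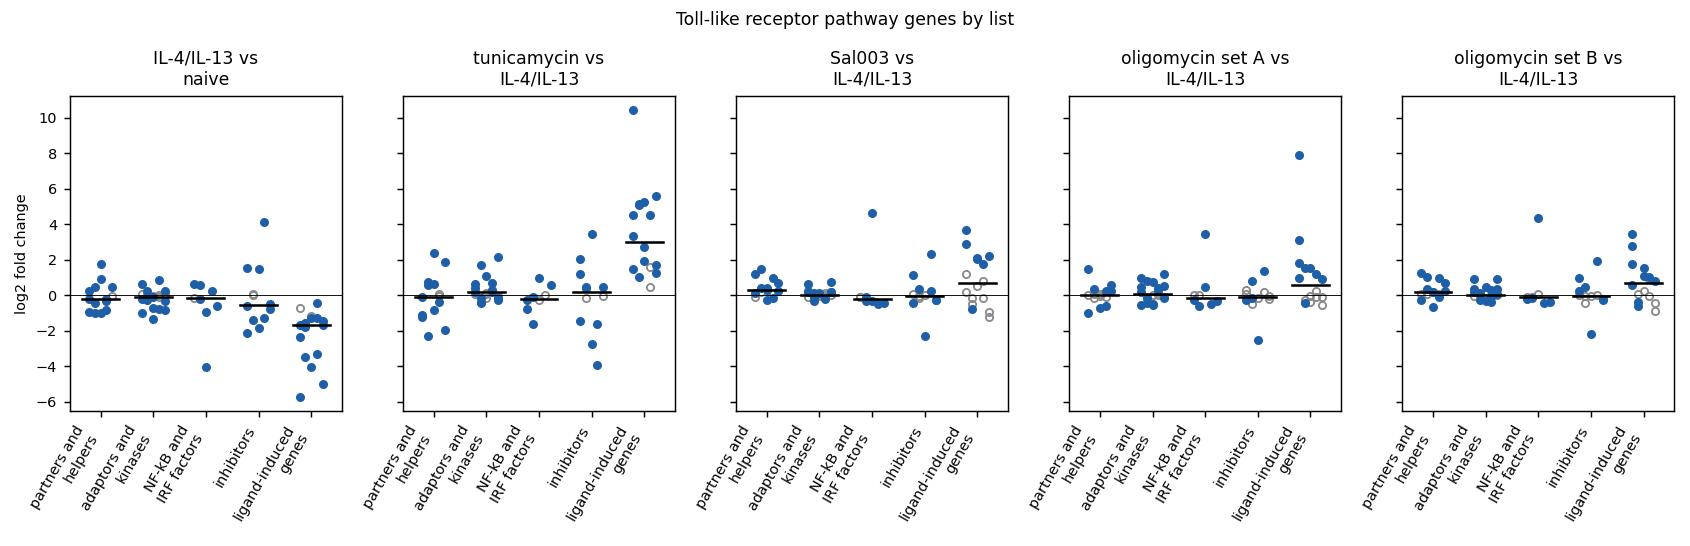
Log2 fold changes of the tested genes of 5 Toll-like receptor pathway lists, 1 panel per comparison; filled points passed adjusted p under 0.05, open points did not, and the black line is the list's median. The ligand-induced genes have a median of -1.68 with IL-4/IL-13 against naive cells and of 3.00 with tunicamycin against IL-4/IL-13. The highest point with tunicamycin and in set A is Il6, whose fitted value rests on a group near 0.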

How the data were processed

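Cultured bone marrow-derived macrophages of 4 mice were profiled by RNA-seq in 6 groups. Per the submitters' processing notes the authors used cutadapt 1.8, STAR 2.7, HTSeq 0.9.1 and RSEM 1.2.31, and they deposited whole-number HTSeq counts per Ensembl gene, which were used here as deposited. Whether the counting used strand is not given in the sources used here. A second deposited table, of TPM, was not used because its header names do not line up with its cells. The 5 rows that name no gene held 12.74 to 15.23% of the reads and stayed out of library sizes and tests. Names came from GENCODE M39 (GRCm39), which matched 56323 of the 56884 identifiers.

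Counts were tested with edgeR 4.0.16 in R 4.3.3 (TMM scaling, expression filter by group, quasi-likelihood fit with 1 coefficient per group over all 24 libraries, two-sided tests) and adjusted by Benjamini and Hochberg over 13679 genes. A gene passed at an adjusted p under 0.05 and was called if it also differed by at least 2.5-fold, the thresholds of the study. Standard errors were derived from the fold change and its F statistic, and intervals are the log2 fold change ± 2 SE. Libraries of a group differed beyond counting noise (chi-square per gene 2.19 to 35.91, the highest with the naive library of mouse 2), and the median biological coefficient of variation was 7.1%. The same mouse gave all 6 libraries of its number. After the group means were removed, libraries of the same mouse correlated at a median of 0.24 (56 of 60 pairs above 0.1) and those of different mice at -0.05, so a fit with the mouse as a replicate block was an alternative. Others were DESeq2 1.42.0, other filters, upper-quartile scaling, only the groups compared, a 2-fold threshold and leaving out each mouse.

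The 10 genes, the 5 pathway lists and the markers were chosen with earlier results of these data known. Of the pathway genes, the text names some of those picked by a rule. The rule took up to 3 largest rises and 3 largest falls per comparison that passed, moved alike in all 4 mice and averaged at least 50 counts. Genes outside it were chosen after their values were seen, as said above. The genes most like a receptor are the 3 with the highest Pearson r over 24 libraries.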

Additional observations from a re-analysis of the deposited data

Results flagged for a closer look

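In 4 of 60 sets of 4 libraries (10 genes in 6 groups) 1 library lay far from the other 3, with a gap over the range above Dixon's 95% critical value, which chance gives in about 1 of 20 sets. Tlr1 in oligomycin set A was at 49.3 CPM in mouse 5 and at 46.5 to 46.9 CPM in the others. Tlr3 was at 10.6 CPM in mouse 1 with IL-4/IL-13, against 12.3 to 12.6, and at 13.4 CPM in mouse 4 with tunicamycin, against 11.4 to 11.6. Cd14 with Sal003 was at 42.9 CPM in mouse 4 and at 33.7 to 34.6 CPM in the others.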

How the results depend on the processing

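The 10 genes in 10 comparisons gave 100 log2 fold changes, each recomputed under 10 alternatives. Of these 1000 values 947 kept their direction and their side of the threshold, 22 passed where the reported value did not, 14 no longer passed and 17 changed sign. Group levels computed with unscaled library totals moved by more than 1 SD in 11 of 60. The cause was not tested in any of these cases. The sign changes were in differences that did not pass. Tlr9 in set B against IL-4/IL-13 was -0.02 with DESeq2, -0.01 with at least 10 counts in every library, with only the groups compared and with the replicate block, -0.04 with upper-quartile scaling and -0.12 to 0.15 when each mouse was left out. Leaving out each mouse gave -0.04 to 0.06 for Tlr3 with tunicamycin against IL-4/IL-13 (0.04 with no filter), -0.16 to 0.13 for Tlr3 in set B against naive cells (0.01 with no filter), -0.01 to 0.10 for Tlr13 with Sal003 against naive cells (-0.0048 with upper-quartile scaling), -0.02 to 0.21 for Tlr8 with IL-4/IL-13 against naive cells and -0.03 to 0.16 for Tlr9 with Sal003 against IL-4/IL-13. The lowest of these for Tlr8 was without mouse 2 and for Tlr9 with Sal003 without mouse 5.

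With the mouse as a replicate block, Tlr4 passed with Sal003 against IL-4/IL-13 (0.20, adjusted p = 0.022), Tlr8 passed in set A against IL-4/IL-13 (-0.25, adjusted p = 0.043) and Tlr6 passed with tunicamycin against naive cells (0.12, adjusted p = 0.035). The block changed no other call of the 10 genes. Leaving out each mouse gave 4 to 5 called genes of the 10 with IL-4/IL-13 against naive cells, then against IL-4/IL-13 alone 5 (tunicamycin), 2 (Sal003), 1 (set A) and 0 to 2 (set B), 2 between the sets, and against naive cells 3 to 4 (tunicamycin), 3 (Sal003), 5 to 6 (set A) and 3 (set B). The pathway genes called ranged, in the same order, over 18 to 22, 25 to 27, 9 to 10, 8 to 9, 5 to 8, 2 to 3, 21 to 23, 15 to 17, 15 to 18 and 15 to 16. Upper-quartile scaling left 0 of the 10 genes called in set B against IL-4/IL-13, and a 2-fold threshold gave 2 there and 3 in set A. That threshold gave 11 pathway genes in set B against IL-4/IL-13 and 5 between the sets. Requiring at least 10 counts in every library, which leaves fewer genes tested (11017), gave 13 called pathway genes with IL-4/IL-13 against naive cells, then against IL-4/IL-13 alone 6 (Sal003), 4 (set A) and 3 (set B), 1 between the sets, and against naive cells 8 (Sal003), 10 (set A) and 8 (set B). The shares of all genes called are not given for this filter, for the 2-fold threshold, for upper-quartile scaling or for the fits without a mouse. The counts under these alternatives therefore have no background beside them.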
